A study of Mus musculus with 27 samples.

Results

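The Allantois cells described here are the cells of Leiden cluster 10 in the deposited table of single gastruloid cells. Their members were chosen by this cluster number alone, which coincides with 1 deposited cell type, and they comprise 96 of the 4637 gastruloid cells (2.07%, 95% Wilson interval 1.70 to 2.52%) and 96 of the 8784 cells of the series as a whole. In the mouse embryo, the allantois is an outgrowth of extraembryonic mesoderm at the posterior end, which reaches the chorion and supplies the vessels of the umbilical cord. Gastruloids are aggregates of mouse embryonic stem cells (mESCs) that elongate along an anterior-posterior axis and form derivatives of all germ layers without extraembryonic support. The transcription factors Tbx4, Hand1 and Hoxa13 are used as markers of the allantois and of neighbouring posterior or extraembryonic mesoderm. The tables used here hold values per cell and none per gene, so the label could not be checked against these markers, and no doublet calling was possible. The deposited germ layer of all 96 cells is endoderm, where they made up 41.7% of 230 cells, although the allantois of the embryo is of mesodermal origin.

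All gastruloids were made from 129S1/SvImJ / C57BL/6 mESCs (B6), a hybrid of both mouse strains, and were profiled as single gastruloids at 120 h after aggregation of 600 cells, with a pulse of the Wnt activator chiron from 48 h to 72 h. The pre-cultures before aggregation lasted 96 h and differed in their exposure to 2i, a medium in which leukaemia inhibitory factor is combined with inhibition of the kinases MEK and GSK3. In condition 1, cells stayed throughout in ESLIF, a serum medium with the same factor. For condition 5, a 48 h pulse of 2i was followed by 48 h of ESLIF. For condition 6, the pulse was 24 h long and was followed by 24 h of ESLIF. Each condition is represented by 5 gastruloids, which carry the deposited names 1A to 1E, 5A to 5E and 6A to 6E. Each gastruloid was dissociated, sorted by DAPI staining into a single 384-well plate and processed with CEL-seq2, which counts transcripts by molecular identifiers, so differences between gastruloids and between plates cannot be told apart. The labels call the gastruloids of a condition biological replicates, but they do not say that these came from separate pre-cultures. With 261 to 348 cells per gastruloid, medians of 7240 to 12157.5 counts per cell among the other cell types limited the depth.

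The question for the first comparison was whether the number of Allantois cells depends on the pre-culture. Allantois cells were found in 14 of the 15 gastruloids, and 57 of the 96 came from condition 1, 26 from condition 5 and 13 from condition 6. In condition 1, they made up 1.94% of the cells in gastruloid 1A, 3.61% in 1B, 3.36% in 1C, 4.97% in 1D and 4.76% in 1E. In condition 5, the shares were 2.53% in 5A, 1.44% in 5B, 1.53% in 5C, 2.01% in 5D and 0.971% in 5E. In condition 6, they were 1.26% in 6A, 2.03% in 6B, 0.633% in 6D and 0.308% in 6E. Gastruloid 6C held 0 of 321 cells, which allows a share of up to 0.935% (3 cells), or 1.18% by the Wilson interval used for the other gastruloids. The 4 highest shares were all from condition 1, whereas 1A lay among the gastruloids of condition 5 and just below 6B, so that the ranges of all 3 conditions overlapped. With 1 to 15 Allantois cells per gastruloid that had any, the counting intervals were wide, from 0.0543 to 1.72% in 6E and from 3.03 to 8.03% in 1D.

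**Figure D1:**
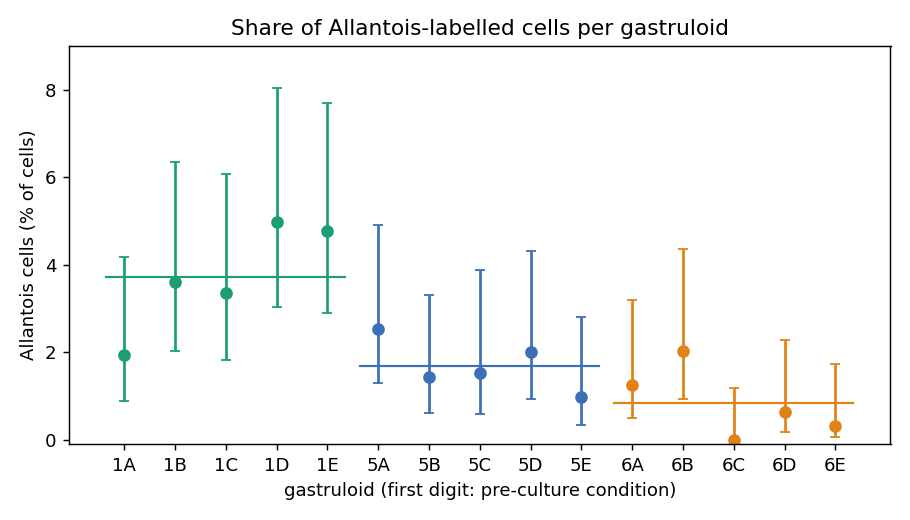
Share of Allantois cells (percent of the cells of a gastruloid) for the 15 gastruloids, grouped and coloured by pre-culture condition. Points are gastruloids, error bars are 95% Wilson intervals that cover counting error only, and horizontal lines are condition means of 3.73%, 1.70% and 0.845%. Gastruloids 1B to 1E lie above all others, and 1A lies among those of condition 5.

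Condition 1 had a mean share of 3.73 ± 1.22%, condition 5 of 1.70 ± 0.596% and condition 6 of 0.845 ± 0.809% (SD over 5 gastruloids each). Condition 1 exceeded condition 6 by 2.88 percentage points, which passed a two-sided exact rank-sum test (Wilcoxon) on the gastruloid shares after correction for 3 pairs of conditions (p = 0.0159, corrected p = 0.0476). The gastruloid of condition 1 had the higher share in 96% of the pairs that can be formed between both conditions. Without 1B, 1C, 1D, 1E, 6A, 6C, 6D or 6E, the corrected exact p was 0.0952. Only without 1A or 6B did it stay at 0.0476, which is the smallest value that 4 against 5 gastruloids allow. At these numbers only complete separation of both conditions can pass, and 1A below 6B was the only exception to it. These omissions therefore cannot show whether the call rests on a single gastruloid. The difference itself stayed between 2.57 and 3.33 percentage points. The call was also lost when the p-values were adjusted over all 12 tests between conditions described here (Benjamini-Hochberg adjusted exact p = 0.190). The difference between conditions 1 and 5 was 2.03 percentage points and did not pass (exact p = 0.0317, corrected p = 0.0952). It passed when PGC-like cells, a pluripotent type resembling primordial germ cells, were left out of the denominator (2.18 percentage points, corrected exact p = 0.0476), with a centred log-ratio of the cell types (corrected exact p = 0.0476) and without 1A (2.48 percentage points, corrected exact p = 0.0476). Conditions 5 and 6 differed by 0.852 percentage points, which did not pass (exact p = 0.151, corrected p = 0.452). A share says nothing of the absolute number of Allantois cells in a gastruloid, since it also falls when other cell types increase.

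The mitochondrial percentage set the Allantois cells apart from the other cells of the same gastruloids. It is the share of a cell's reads that derive from transcripts encoded in mitochondria, most of them for subunits of the respiratory chain. In the Allantois cells, the median was 0.343% (quartiles 0.269 and 0.472%), with values from 0.0833 to 2.16%. The medians of the 10 other cell types lay between 4.61 and 5.47%. The median over the Allantois cells of a gastruloid was 0.322% in 1A, 0.250% in 1B, 0.268% in 1C, 0.350% in 1D and 0.370% in 1E. In condition 5, it was 0.401% in 5A, 0.287% in 5B, 0.316% in 5C, 0.602% in 5D and 0.277% in 5E. In condition 6, it was 0.288% in 6A, 0.696% in 6B, 0.757% in 6D and 0.290% in 6E. In contrast, the medians of the other cells of these 14 gastruloids ranged from 4.32 to 5.60%, so that none of the Allantois medians overlapped with them. In each of the 14 gastruloids, the highest value of an Allantois cell lay below the 1st percentile of the other cells.

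**Figure D2:**
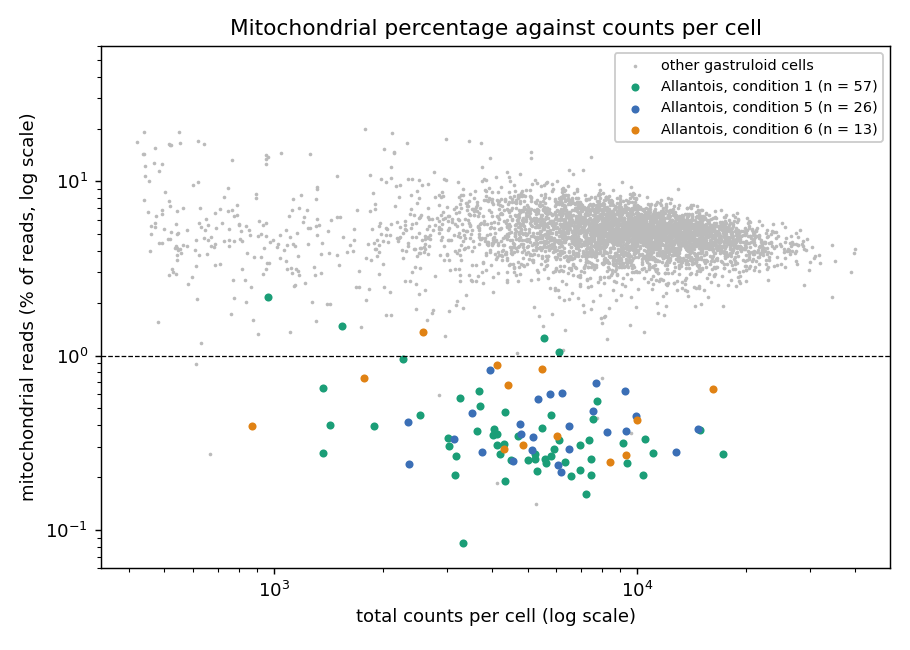
Mitochondrial reads (percent of a cell's reads) against total counts, both on log axes, for 96 Allantois cells coloured by pre-culture condition and 4541 other gastruloid cells in grey. The dashed line marks 1%. Below it lie 91 Allantois cells and 8 other cells, over a wide range of counts.

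A mitochondrial percentage under 1% was found in 91 Allantois cells and in 8 of the 4541 other cells, so that Allantois cells made up 91.9% of the 99 cells with such values. The 5 Allantois cells above this value had 1.04% in 1E, 1.27% in 1D, 1.37% in 6B, 1.47% in 1C and 2.16% in 1D. The last was also the Allantois cell with the second lowest depth, at 962 counts. Of the 8 other cells, 5 were Endoderm cells, 2 were Differentiation Front cells and 1 was an NMP/Caudal Epiblast cell, where NMP stands for neuromesodermal progenitors. The 5 Endoderm cells had 0.140%, 0.185%, 0.357%, 0.436% and 0.595%. They came from 6D, 6E, 6A, 5A and 6E, respectively, and thus none from condition 1. Of the Differentiation Front cells, 1 had 669 counts in all, and the NMP/Caudal Epiblast cell had 612, so their percentages rest on few molecules. The authors regressed the mitochondrial percentage, the number of counts and the cell cycle phase out of the expression values before clustering. The clusters were built from the same cells, so the difference is described here and not tested.

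Each Allantois cell was then compared with the 20 cells of other cell types in the same gastruloid that had the nearest log10 counts. The median count of these matched cells differed from that of the Allantois cell by 1.26% in the median, with the Allantois cell lower. For 16 Allantois cells, all with at most 4131 counts, it differed by more than 10%. The mitochondrial percentage was 0.391 ± 0.167% in Allantois cells and 5.40 ± 0.574% in matched cells, and the difference of -5.00 ± 0.668 percentage points (mean of gastruloid medians, SD, n = 14) ranged from -5.92 in 1D to -3.77 in 6B. All 96 Allantois cells lay below the median of their matched cells, by a factor of 16.9 in the median and of 2.10 to 64.5 overall. With only the 80 cells whose matches differed by at most 10% in counts, an alternative chosen after seeing the data, the difference was -5.09 ± 0.615 percentage points. Other cell types were matched in the same way for comparison. The difference was 0.372 ± 0.672 percentage points for Endoderm cells (SD, n = 15), 0.316 ± 0.413 for PGC-like cells (n = 15) and -0.344 ± 0.791 for Endothelium cells (n = 11).

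Between the pre-culture conditions, the mitochondrial percentage of Allantois cells gave no call. Condition 1 had a mean of gastruloid medians of 0.312 ± 0.0517% (SD, n = 5), condition 5 of 0.377 ± 0.135% (n = 5) and condition 6 of 0.508 ± 0.254% (n = 4). The same two-sided exact test gave p = 0.548 for conditions 1 and 5, and p = 0.413 both for conditions 1 and 6 and for conditions 5 and 6. The values of 6B, 6D and 6E rest on 6, 2 and 1 cells, respectively.

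Allantois cells also had fewer counts and genes than the other cells. The median was 5287.5 counts per Allantois cell (quartiles 3733 and 7284, range 869 to 17255) and 9186 per other gastruloid cell. Per gastruloid, the median was 10111.5 counts in 1A, 5578 in 1B, 3252 in 1C, 4126 in 1D and 6113 in 1E. In condition 5, it was 7053.5 in 5A, 4547 in 5B, 5613 in 5C, 7998 in 5D and 3743 in 5E. In condition 6, it was 6648.5 in 6A, 5080.5 in 6B, 4946 in 6D and 4319 in 6E. These medians were below those of the other cells in 14 of 14 gastruloids, at 0.399 to 0.966 of their value and 0.585 in the median. Only in 1A did Allantois cells come close to the other cells, which had a median of 10467 counts there. The gastruloid medians averaged 5836 ± 2647 counts for condition 1, 5791 ± 1749 for condition 5 and 5249 ± 991 for condition 6 (SD, n = 5, 5 and 4), and no pair of conditions passed the test (exact Wilcoxon rank-sum p = 0.841 for conditions 1 and 5, p = 1 for conditions 1 and 6 and p = 0.730 for conditions 5 and 6). Whether these totals reflect less RNA per cell or a lower recovery of it cannot be told apart in these data.

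The number of genes followed the counts. Allantois cells had a median of 3087 genes, whereas the other cells had 4343. Over the 14 gastruloids, Allantois cells had 3172 ± 605 genes and their matched cells 3200 ± 647. The percent difference was -0.805 ± 4.43% (mean of gastruloid medians, SD, n = 14), which is within the spread of the gastruloids, with 5 gastruloids lower and 9 higher. It was -1.36% without 6E, -0.372% without 1C, -0.277% without 5C and -0.0591% without 6B. Its size and sign also depended on the matching, and it was -6.02% with the 50 nearest cells, 0.311% with the 10 nearest cells, 0.431% with all cells within 20% of the counts and 1.07% with the 80 closely matched Allantois cells. The lowest values were -10.5% in 6B, -7.67% in 5C and -6.43% in 1C, and the highest was 6.37% in 6E, which had 1 Allantois cell. In genes per count, Allantois cells exceeded matched cells by 2.49 ± 3.01%, with 13 of 14 gastruloids higher. Endoderm cells exceeded their own matched cells in this ratio by 2.18 ± 1.36%, so such a difference was not seen for Allantois cells alone. Between conditions, the percent difference in gene number was not called (exact Wilcoxon rank-sum p = 0.690 for conditions 1 and 5, p = 1 for conditions 1 and 6 and p = 0.730 for conditions 5 and 6).

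**Figure D3:**
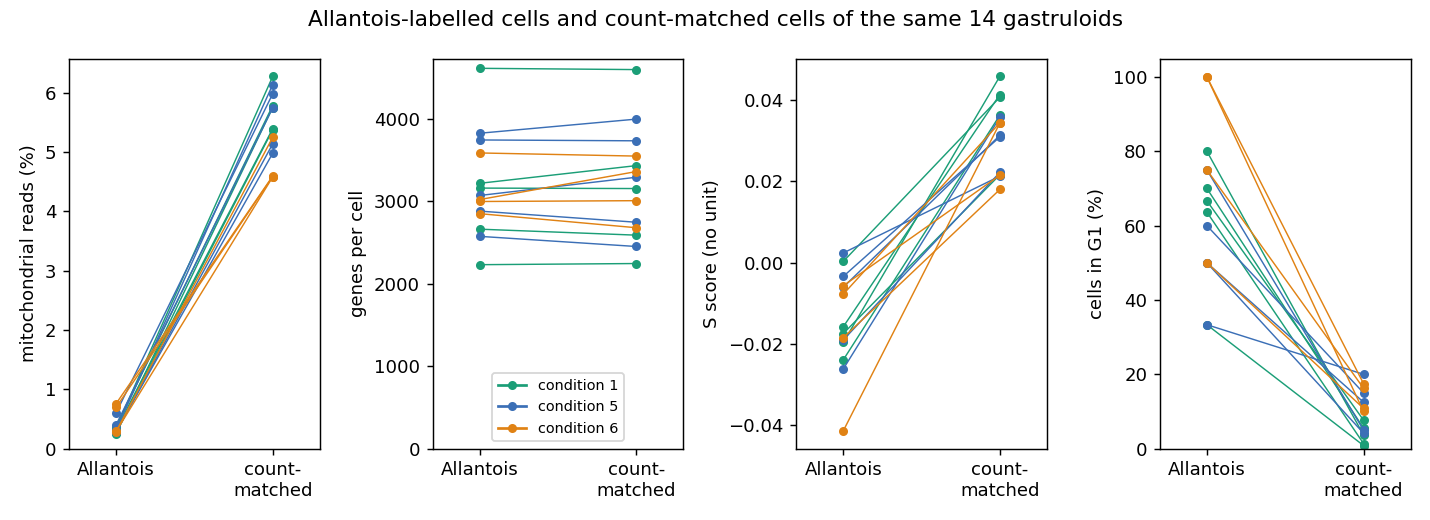
Mitochondrial reads, genes per cell, S score and share of cells in G1 in Allantois cells and in count-matched cells of other types from the same gastruloid. Each line is 1 of 14 gastruloids, coloured by pre-culture condition, and points are medians over cells, or means for the share in G1. The mitochondrial percentage and the S score are lower and the share in G1 is higher in Allantois cells of every gastruloid, whereas gene numbers lie close together.

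The deposited table assigns every cell to a phase of the cell cycle and gives a score for S phase, in which DNA is replicated, and for G2 and M phase, which lead up to and include mitosis. The scores compare the expression of phase genes in a cell with that of other genes and have no unit. Of the 96 Allantois cells, 62 were assigned to G1 (64.6%, 95% Wilson interval 54.6 to 73.4%), 28 to G2M (29.2%, 21.0 to 38.9%) and 6 to S (6.25%, 2.90 to 13%). Among the other gastruloid cells, 5.29% were assigned to G1, 37.2% to G2M and 57.6% to S. Allantois cells thus made up 20.5% of the 302 G1 cells. All of the cells with both scores below 0, and no others, are assigned to G1, so a G1 call states only that neither set of phase genes stands out in a cell, and phase and scores are 1 measurement. The call alone cannot show whether a cell was cycling.

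In condition 1, Allantois cells in G1 numbered 2 of 6 in 1A, 7 of 11 in 1B, 7 of 10 in 1C, 10 of 15 in 1D and 12 of 15 in 1E. In condition 5, there were 6 of 8 in 5A, 3 of 5 in 5B, 2 of 4 in 5C, 3 of 6 in 5D and 1 of 3 in 5E. In condition 6, there were 3 of 4 in 6A, 3 of 6 in 6B, 2 of 2 in 6D and 1 of 1 in 6E. Gastruloids 1A and 5E had the lowest share, 33.3% each, which was still above the 0.833% and 20% of their matched cells. Over the 14 gastruloids, 64.8 ± 20.8% of Allantois cells and 9.31 ± 6.23% of matched cells were in G1, with a difference of 55.5 ± 21.1 percentage points that was positive in all 14. The difference was also examined in 3 classes of equal size by counts over all gastruloid cells. In the lowest class (419 to 7189 counts), 50 of 71 Allantois cells (70.4%) and 9.63% of the other cells were in G1, and in the middle class (7193 to 11196 counts) these were 12 of 20 (60%) and 4.92%. In the highest class (from 11199 counts), 0 of 5 Allantois cells (Wilson interval 0 to 43.4%) and 1.49% of the other cells were in G1.

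The S score was lower in Allantois cells. Its median was -0.0163 in the 96 cells and 0.0336 in the other cells. Relative to matched cells, the difference was -0.0443 ± 0.0164 (SD, n = 14), lower in 14 of 14 gastruloids and in 94 of 96 cells, and it ranged from -0.0758 in 6E to -0.0124 in 5E. The difference in the G2M score was smaller, at -0.0158 ± 0.0114, with 12 of 14 gastruloids and 70 of 96 cells lower. An S score below 0 was found in 76.0% of Allantois cells and in 10.0% of the other cells, and a G2M score below 0 in 67.7% and 32.5%. Within the Allantois cells, both scores rose together (Spearman's rho 0.64, Pearson's r 0.67, over 96 cells from 14 gastruloids), whereas in the 4541 other cells they were weakly opposed (-0.26 and -0.27). These coefficients describe cells that share plates and depths. Cells with more counts also tended to higher G2M scores, among Allantois cells (Spearman's rho 0.23, Pearson's r 0.44) and among the other cells (0.33 and 0.32).

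**Figure D4:**
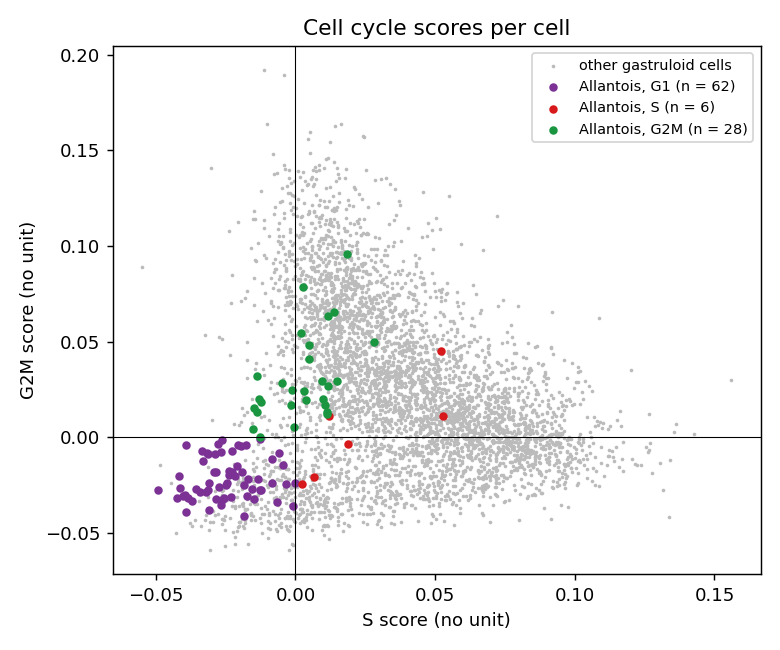
S score against G2M score (no unit) for 96 Allantois cells, coloured by assigned phase, and 4541 other gastruloid cells in grey. Lines mark 0. Most Allantois cells (62) lie in the quadrant in which both scores are below 0, and the 28 G2M cells lie above 0 on the G2M score.

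Of the other types, Endothelium cells, which line vessels, and Neural Crest cells were also often assigned to G1. These were 28 of 62 Endothelium cells (45.2%) and 9 of 9 Neural Crest cells. Both names are those of the study, and the deposited names are Haemogenic and Neural Tube Progenitors, respectively. Against count-matched cells, the share in G1 differed by 44.2 ± 33.7 percentage points in Endothelium cells (SD, n = 11 gastruloids) and the S score by -0.0349 ± 0.0186. The Endothelium cells had no cell under 1% mitochondrial reads, and their median was 4.61%. Endoderm cells were in G1 in 10.4% of cases. A low S score thus occurred in other types, whereas no other of the 11 gastruloid cell types had a median mitochondrial percentage below 4.61%.

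Depth and mitochondrial percentage were also compared between Allantois cells of different phases. The 62 G1 cells had a median of 5076.5 counts and 0.348% mitochondrial reads, and the 28 G2M cells 6186.5 counts and 0.285%. The 6 S cells, from 5 gastruloids, had 4617 counts and 0.399%. All phases thus lay far below the percentages of the other cell types. The share of Allantois cells in G1 was 66.7% in condition 1 (38 of 57 cells), 57.7% in condition 5 (15 of 26) and 69.2% in condition 6 (9 of 13). These shares pool cells of several gastruloids, their Wilson intervals overlap, and the difference was not tested.

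On the UMAP, Allantois cells formed a narrow band of their own. Of their 1440 neighbours, 15 for each cell, 1425 (99.0%) were Allantois cells and the remaining 15 were Endoderm cells. All of the latter belonged to 2 Allantois cells, and the other 94 had no neighbour of another type. Such a share of neighbours of the own type was not particular to Allantois cells. It was 98.9% for PGC-like cells, 98.4% for Endothelium cells, 93.5% for Endoderm cells and 85.5% for Differentiation Front cells. With neighbours taken only from other gastruloids, the share for Allantois cells was also 99.0%, so the band was shared between gastruloids. Neighbours from the cell's own gastruloid made up 10.5%, where a random mixture of Allantois cells would give 9.0%, and those of its own condition 48% against 43.8%. The nearest cell of another type was a PGC-like cell for 69 Allantois cells and an Endoderm cell for 27. A second deposited clustering, whose making is not given in the sources used here, placed all 96 in its cluster 13, together with 2 Endoderm cells and 1 Presomitic Mesoderm cell. Of these Endoderm cells, 1 was the cell of 6D with 0.140% mitochondrial reads, which lay at the smallest UMAP distance to an Allantois cell (0.324 UMAP units). Distances on a UMAP do not scale with differences in expression. The UMAP and clusters derive from the same expression values, so this is a description.

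**Figure D5:**
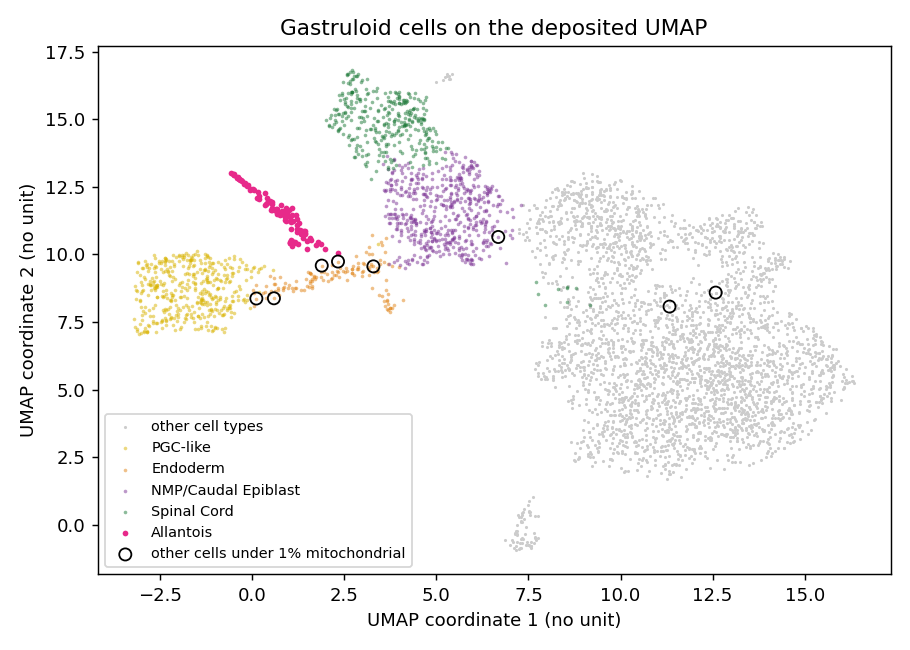
Deposited UMAP coordinates (no unit) of 4637 gastruloid cells, with the 96 Allantois cells, 4 nearby cell types and all remaining types in separate colours. Black circles mark the 8 cells of other types with under 1% mitochondrial reads. Allantois cells form a narrow band, which ends near Endoderm cells.

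The long axis of this band held 97.4% of the variance of the UMAP coordinates of Allantois cells. Along it, the cells were divided into 3 segments of 32 cells by their order from the end near Endoderm cells. In the near, middle and far segment, 4, 7 and 17 cells were in G2M and 24, 23 and 15 in G1. The median G2M score was -0.0281, -0.0178 and 0.00223, respectively. The far segment held 26 cells from condition 1, 3 from condition 5 and 3 from condition 6, which came from 10 gastruloids. The near segment held 16, 11 and 5, and the middle segment 15, 12 and 5. The mixture of conditions thus differed in the far segment only. How much of the trend in the G2M score goes along with condition 1 was not tested. The median mitochondrial percentage was 0.381%, 0.322% and 0.305% from the near to the far segment, and the median counts were 6043, 5212 and 4600. The position on the axis had a Spearman's rho of 0.47 with the G2M score and of -0.20 with the mitochondrial percentage over the 96 cells. With the counts, Spearman's rho was only -0.08.

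The cell number in the deposited names was also examined, although the labels do not say whether it stands for a position in the plate. The 96 Allantois cells used 88 different cell numbers, and 8 numbers were shared between Allantois cells of different gastruloids. With the numbers of a plate divided into 4 equal ranges, 23, 23, 19 and 31 Allantois cells were found, where the other cells had 25.6%, 25.4%, 25.7% and 23.3%. Pooled over gastruloids, Allantois cells were thus spread over the cell numbers, with 32.3% of them in the last range.

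A small group of cells with a low mitochondrial percentage was also present among the mESCs, which were profiled on 12 separate plates before aggregation. These plates cover 6 pre-cultures. Beside conditions 1, 5 and 6, they include condition 2 with 96 h in 2i, and conditions 3 and 4, in which 2i was given during the final 48 h or 24 h, respectively. The labels name both plates of a condition technical replicates. Of 4147 mESCs, 28 were annotated as Mesoderm Progenitors, a state whose deposited name also carries the term cell cycle arrest. They came from all 6 conditions, with 1 to 8 cells each. Their median mitochondrial percentage was 0.544%, whereas the other mESCs had 5.56%. The separation was less complete than for Allantois cells, since 19 of the 28 (67.9%) were under 1%, the highest had 14.3%, and 36 other mESCs were also under 1%. Relative to count-matched mESCs of the same plate, with plates averaged within a condition, the mitochondrial percentage differed by -5.21 ± 1.31 percentage points (SD, n = 6 conditions, lower in 6 of 6) and the S score by -0.0339 ± 0.0250. Of these 28 mESCs, 2 (7.14%, Wilson interval 1.98 to 22.6%) were assigned to G1, where the other mESCs had 1.09%. A further 17 (60.7%, 42.4 to 76.4%) were assigned to S and 9 (32.1%, 17.9 to 50.7%) to G2M. The other mESCs had 51.0% in S and 47.9% in G2M. A share in S below that of the other cells, as for Allantois cells, was thus not seen here. The scores of mESCs and gastruloid cells come from separate tables, so their levels were not compared, and no cell can be followed from the mESC plates to the gastruloids.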

How the data were processed

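Single-cell transcriptomes of 15 gastruloids were used, with 12 plates of mESCs for 1 comparison. According to the study's methods, the authors trimmed reads with cutadapt (4.1), mapped them with STAR (2.5.3a) to a strain-masked GRCm38 genome, removed duplicates, left out gastruloid cells with under 500 reads, under 100 genes or over 20% mitochondrial reads, and clustered with the Leiden algorithm. Cell types carry the names of the study. The deposited names differ for Endothelium (Haemogenic), Neural Crest (Neural Tube Progenitors) and PGC-like cells (PGCs). They also differ for NMP/Caudal Epiblast (Tailbud) and Differentiation Front (Somitogenesis Wavefront). The deposited total counts and gene numbers per cell are whole numbers without normalization. The mitochondrial value deposited by the authors is a fraction of reads, given here in percent. The denominator of this fraction is not the deposited count, since their product was whole (within 0.01) for 1.88% of cells. The authors left mitochondrial, ribosomal and Malat1 reads out of their later steps. Whether the deposited counts include these reads is not stated. The deposited cell cycle score has no unit. No gene is reported, since the tables hold none, and cells were not thinned. Adapter and demultiplexing reports were not used.

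Shares, medians per gastruloid and differences from the 20 count-matched cells were computed in Python 3.11.15 with scipy 1.17.1 and compared over gastruloids with exact two-sided Wilcoxon rank-sum tests, called when p times 3 was under 0.05. The scripts were tested on simulated data. Intervals (95%, Wilson) and the limit for a count of 0 (3 cells) cover counting error only. The members, measures and lists were chosen with earlier results of these data known. Alternatives were other matching, depth minimums, denominators, tests and corrections, a block by replicate number and omission of single gastruloids.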

Additional observations from a re-analysis of the deposited data

Results flagged for a closer look

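In 2 of 12 groups of gastruloid values checked for a sample far from the others, 1 gastruloid lay far below the rest of its condition in the gene number of Allantois cells relative to count-matched cells. This was gastruloid 1C in condition 1 with -6.43%, where the others of the condition ranged from 0.0342 to 1.12%, and gastruloid 5C in condition 5 with -7.67%, where the others ranged from -0.131 to 2.83%. These medians rest on 10 and 4 Allantois cells, respectively. Chance alone marks about 1 in 20 such groups.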

How the results depend on the processing

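The differences of Allantois cells from count-matched cells in mitochondrial percentage and share in G1 kept their direction and moved by less than 1 SD under all alternatives run, and those in genes per count, S score and G2M score kept their direction. Gene number turned with the 10 nearest cells (0.311%), cells within 20% of the counts (0.431%) and, chosen after seeing the data, closely matched cells (1.07%). Leaving out 1 gastruloid moved it between -1.36 and -0.0591%. With 50 nearest cells, no matching or only Endoderm and PGC-like cells, gene number differed by -6.02%, -27.8% and -27.7% and genes per count by 5.90%, 25.2% and 25.7%. The S score differed by -0.0638 from Endoderm and PGC-like cells, and the G2M score by -0.0336 from these and by -0.0283 without matching. How near in counts the Endoderm and PGC-like cells came to the Allantois cells was not examined. The cause of these shifts was not tested.

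For the share of Allantois cells, conditions 1 and 5 passed the test without PGC-like cells (2.18 percentage points) and as a centred log-ratio (0.689, natural log). Leaving out 1 gastruloid in turn gave 1.72 to 2.48 percentage points for conditions 1 and 5, and 2.57 to 3.33 for conditions 1 and 6. The difference of 2.88 percentage points between conditions 1 and 6 did not pass after Benjamini-Hochberg adjustment over 12 tests (adjusted exact p = 0.190) or with the replicate block (exact p = 0.125, where 5 pairs cannot go below 0.0625). Gastruloids with the same number did not deviate together (correlations of -0.562 to 0.299 over 15 pairs, 3 over 0.1, and 2 best with their own number). The labels do not say what an equal number stands for, and these correlations cannot show it.

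Differences between conditions that had not passed turned in sign in several cases. The mitochondrial percentage differed by 0.00195 points between conditions 1 and 5 with means. Counts differed by -28.4 between conditions 1 and 6 with at least 3 Allantois cells per gastruloid. Between conditions 5 and 6 they differed by -73.6 with this minimum, by -141.1 with at least 2000 counts and by -9.38 with the replicate block. Gene number differed by 0.286 points between conditions 1 and 5 and by -2.56 between conditions 5 and 6 with at least 2000 counts, and by -1.10 between conditions 5 and 6 with cells within 20% of the counts. Between conditions 1 and 6 it differed by 3.98 with at least 3 Allantois cells, 0.00194 with 10 nearest cells and 1.32 with the replicate block. Leaving out 1 gastruloid gave -1024 to 691 counts for conditions 1 and 5, -481 to 1234 for 1 and 6 and -9.38 to 1054 for 5 and 6. Gene number then ranged from -2.29 to 0.859, from -3.22 to 2.40 and from -2.72 to 2.90 points. The replicate block changed no other call. With at most 5 pairs, it could not have made a call of any difference that had not passed. The values per gastruloid rest on 1 to 15 Allantois cells, and the size of difference that these numbers can show was not tested.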
